A study of Mus musculus with 6 samples.

Results

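Kinesins are motor proteins that walk along microtubules or take their ends apart. Some act in dividing cells, where they build the spindle, move chromosomes and complete cytokinesis. Others serve cilia and sperm flagella, where kinesin-2 carries the building material of the axoneme towards the tip, and others again move vesicles and organelles in cells at interphase.

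The kinesin genes were taken as every row of the count table whose symbol begins with Kif or Kifc and a digit, together with Kifap3, the non-motor subunit of kinesin-2. This gave 48 of the 50763 rows. By the known role of the protein they were sorted into 14 dividing-cell kinesins, 11 ciliary kinesins and 18 transport kinesins. The other 5 rows were in no list: Kif4-ps, Kif22-ps and Kifc5c-ps, whose symbols mark pseudogenes, Kif16bos, whose symbol marks an opposite-strand transcript, and Kif19b. Of the 43 listed genes 40 were tested, and each of these was past the count filter in all 6 libraries. Kif2b, Kif12 and Kif28 had too few counts.

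The tissue was testis of mice at postnatal day 14. Of the 6 samples 3 were wild type (WT) and 3 were of the genotype called sKO, by the series title a conditional Rif1 knockout made in germ cells ahead of meiosis. Neither the Cre driver, the strain, nor which exons were removed was found in the labels. Total counts were 15941672 to 18296594 per library. Since the labels do not name the animals, p-values speak only for how far these samples spread, and that may be technical. Levels are in CPM, counts scaled to library size, and a gene is called when edgeR's quasi-likelihood test gave a Benjamini-Hochberg adjusted p under 0.05 over 18860 genes. Rif1 stood at 96.3, 83.5 and 129 CPM in the WT libraries and 41.9, 46.3 and 49.1 CPM in the sKO libraries, libraries 1 to 3 in that order here and throughout, with a log2 fold change of -1.17 (SE 0.15, adjusted p = 0.0145 by edgeR). This call was lost without WT library 2 (adjusted p = 0.137), sKO library 1 (0.0730) or sKO library 2 (0.120).

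Among the listed kinesins Kif24, a centriolar kinesin that holds back the growth of cilia, was the only one called lower in sKO, and 0 were called higher. Over all genes tested 1.27% were called lower and 0.0318% higher, so 1 of 40 is near the background. At an unadjusted p under 0.05, 6 of the 40 were lower and 2 were higher (8.54% and 5.06% of all genes tested). DESeq2 called 2 of the 40 lower, Kif24 and Kif9, and 0 higher (3.82% and 0.297% of all genes), while limma-voom called 0 either way (0% of all genes).

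The role lists were set side by side by their estimates, with no test between lists. The median log2 fold change was -0.19 over 13 dividing-cell kinesins, -0.14 over 11 ciliary kinesins and 0.06 over 16 transport kinesins, beside 0.03 over all genes tested. Estimates were below 0 for 12 of 13, 7 of 11 and 4 of 16 of them, beside 44.7% of all genes tested. The dividing-cell kinesins kept to log2 fold changes from -0.33 to 0.04, the ciliary kinesins spread from -0.68 to 0.21, and the transport kinesins from -0.21 to 0.27, so the ranges overlapped. Without WT library 1 the ciliary median was -0.05, and without both libraries numbered 1 the transport median was -0.02.

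**Figure D1:**
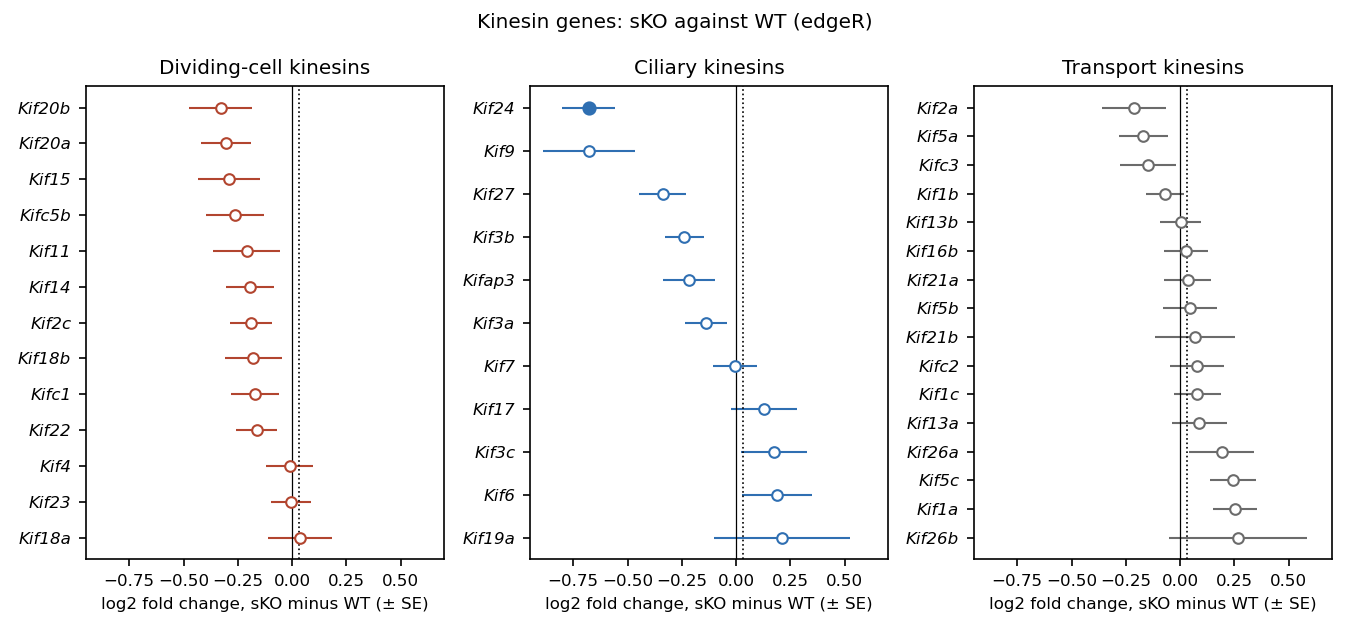
Log2 fold change of sKO against WT (x axis, edgeR estimate, bar = standard error) for the 40 tested kinesins of the 3 role lists. The filled point, Kif24, has an adjusted p under 0.05, open points do not, and the dotted line is the median of all genes tested, 0.03.

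Promoter sequences were compared between the lists, since the sorting by role did not use them. RefSeq promoter windows of GRCm38.p6, from 250 bases before to 50 bases after a start site, matched 35 of the 48 rows by symbol, in 39 windows. They covered 13 of the 14 dividing-cell kinesins, all but Kif20a, and 10 of the 11 ciliary kinesins, all but Kif19a. Of the 18 transport kinesins they covered 11, without Kif5a, Kif5b, Kif13b, Kif21b, Kif28, Kifc2 and Kifc3, so the transport shares describe a part of that list. Both strands were searched for CCAAT, for TTTGAA (the cell cycle homology region of late cell cycle genes), for GTTGCC (part of the X-box that RFX factors bind in ciliary genes) and for TAACNG (a MYB site). In the kinesin windows no match overlapped a match of another motif. The stretches below, 120 bases before to 30 bases after the start, were picked, after the matches were seen, as dividing-cell kinesins with CCAAT and TTTGAA both near the start: Kif11 at chr19:37376262-37376411 on the plus strand, Kif22 at chr7:127042391-127042540 on the minus strand and Kif18b at chr11:102925095-102925244 on the minus strand. Capitals mark a motif or its reverse complement.
Kif11: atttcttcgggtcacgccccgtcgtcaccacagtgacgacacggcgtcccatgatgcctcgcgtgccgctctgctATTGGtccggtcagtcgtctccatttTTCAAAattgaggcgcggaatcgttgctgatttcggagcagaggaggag
Kif22: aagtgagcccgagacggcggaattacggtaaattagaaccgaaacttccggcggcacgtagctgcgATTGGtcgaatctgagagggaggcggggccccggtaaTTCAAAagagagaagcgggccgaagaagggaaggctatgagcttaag
Kif18b: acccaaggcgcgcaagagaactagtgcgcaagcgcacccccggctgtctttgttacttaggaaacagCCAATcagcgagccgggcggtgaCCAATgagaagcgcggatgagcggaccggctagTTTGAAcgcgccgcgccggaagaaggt

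TTTGAA was in 11 of 13 windows of dividing-cell kinesins (84.6%), in 1 of 11 windows of ciliary kinesins (9.09%) and in 2 of 14 windows of transport kinesins (14.3%), against 17.9% of all 32851 windows. CCAAT was in 9 of 13 (69.2%), 6 of 11 (54.5%) and 3 of 14 windows (21.4%), against 37.4% of all. The windows of Kifc1 and Kifc5b are near-identical in sequence and both hold TTTGAA and CCAAT, so they are not separate cases. Likewise, the 2 Kif1b windows overlap and hold the same CCAAT sites. In Kif11 the CCAAT match lay 45 bases and the TTTGAA match 19 bases upstream of the start, and in Kif22 the nearest ones lay 54 and 17 bases upstream. The windows of Kif18a and Kif2b were the dividing-cell windows without TTTGAA. Other members were arranged differently: Kif15, Kif20b and Kif2c had no CCAAT, and in Kif14 and Kif2c the TTTGAA match lay 228 and 103 bases upstream.

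For the ciliary kinesins the stretches are Kif24 at chr4:41464819-41464968 on the minus strand, Kif9 at chr9:110476874-110477023 on the plus strand, Kif3a at chr11:53567249-53567398 on the plus strand and Kif27 at chr13:58354918-58355067 on the minus strand. They are shown because Kif24, Kif9 and Kif27 had the lowest p of the list and Kif3a the highest level.
Kif24: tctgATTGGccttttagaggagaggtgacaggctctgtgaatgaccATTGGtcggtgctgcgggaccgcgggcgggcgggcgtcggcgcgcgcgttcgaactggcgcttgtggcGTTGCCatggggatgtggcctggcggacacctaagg
Kif9: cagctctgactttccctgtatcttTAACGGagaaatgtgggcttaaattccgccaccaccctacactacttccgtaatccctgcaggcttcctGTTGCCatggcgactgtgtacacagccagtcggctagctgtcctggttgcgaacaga
Kif3a: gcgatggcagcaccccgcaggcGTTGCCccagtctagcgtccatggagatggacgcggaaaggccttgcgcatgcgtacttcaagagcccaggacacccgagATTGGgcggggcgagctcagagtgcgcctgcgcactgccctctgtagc
Kif27: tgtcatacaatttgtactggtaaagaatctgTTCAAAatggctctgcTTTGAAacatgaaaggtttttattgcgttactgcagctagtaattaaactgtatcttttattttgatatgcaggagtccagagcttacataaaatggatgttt

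GTTGCC was in 6 of 11 windows of ciliary kinesins (54.5%), which belong to Kif24, Kif9, Kif3a, Kif3c and Kif17, against 15.4% of dividing-cell windows, 21.4% of transport windows and 12.5% of all windows. It lay 6 bases upstream of the start in Kif24, 27 bases in the Kif9 window shown and 98 bases in Kif3a. The genes with this match did not share a direction: Kif24 and Kif9 had the lowest estimates of the list, and those of Kif3c and Kif17 were above 0. TAACNG was in 2 of 11 ciliary windows (18.2%), both of Kif9, and in 4 of 13 dividing-cell windows (30.8%), against 23.3% of all. The 2 Kif9 windows overlap and hold the same GTTGCC and the same TAACNG. By gene, GTTGCC was in 5 of the 10 ciliary kinesins with a window and TAACNG in 1. Kif27 stood apart from the other ciliary windows with 3 TTTGAA matches, and it had no GTTGCC. Binding to these sequences was not measured.

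Kif24 was at 59.1, 50.4 and 47.2 CPM in the WT libraries and 31.4, 30.5 and 35.99 CPM in the sKO libraries. The sKO values all lay below the WT values, by a gap larger than the SD of either group. The WT mean was 52.2 ± 6.15 CPM and the sKO mean 32.6 ± 2.96 CPM (SD, n = 3 each), so that Kif24 fell to 62.5% of its WT level (log2 fold change -0.68, SE 0.12, adjusted p = 0.0314 by edgeR). The exact two-sided permutation test gave p = 0.1, the smallest that 3 against 3 libraries allow. The adjusted p of Kif24 rose above the threshold when WT library 1 (0.0584), WT library 2 (0.142), sKO library 1 (0.125) or sKO library 2 (0.182) was left out, in a range of 7.18e-06 to 0.182 over 13 alternatives, while its log2 fold change stayed between -0.79 and -0.57.

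Kif9, a kinesin of the central apparatus of motile axonemes, had an estimate of like size with a larger error. It was at 29.7, 19.4 and 17.1 CPM in the WT libraries and 12.4, 12.6 and 16.4 CPM in the sKO libraries. WT library 1 was high, and the groups did not overlap but nearly met at WT library 3 and sKO library 3. The result was not called (log2 fold change -0.68, SE 0.21, adjusted p = 0.169 by edgeR), and the log2 fold change was -0.40 without WT library 1. With DESeq2 the adjusted p of Kif9 was 0.0412, in a range of 0.00179 to 0.691 over its alternatives.

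Kif27, a relative of Kif7 that serves motile cilia, was at 39.3, 35.3 and 34.1 CPM in the WT libraries and 29.5, 27.4 and 29.1 CPM in the sKO libraries. Its sKO libraries lay close together and below every WT library (log2 fold change -0.34, SE 0.11, adjusted p = 0.181 by edgeR). Kif7, which acts at the cilium tip in Hedgehog signalling, was at 35.5, 37.5 and 36.9 CPM in the WT libraries and 36.9, 34.8 and 37.9 CPM in the sKO libraries. Its groups were interleaved, with a log2 fold change of -0.01 (SE 0.10).

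**Figure D2:**
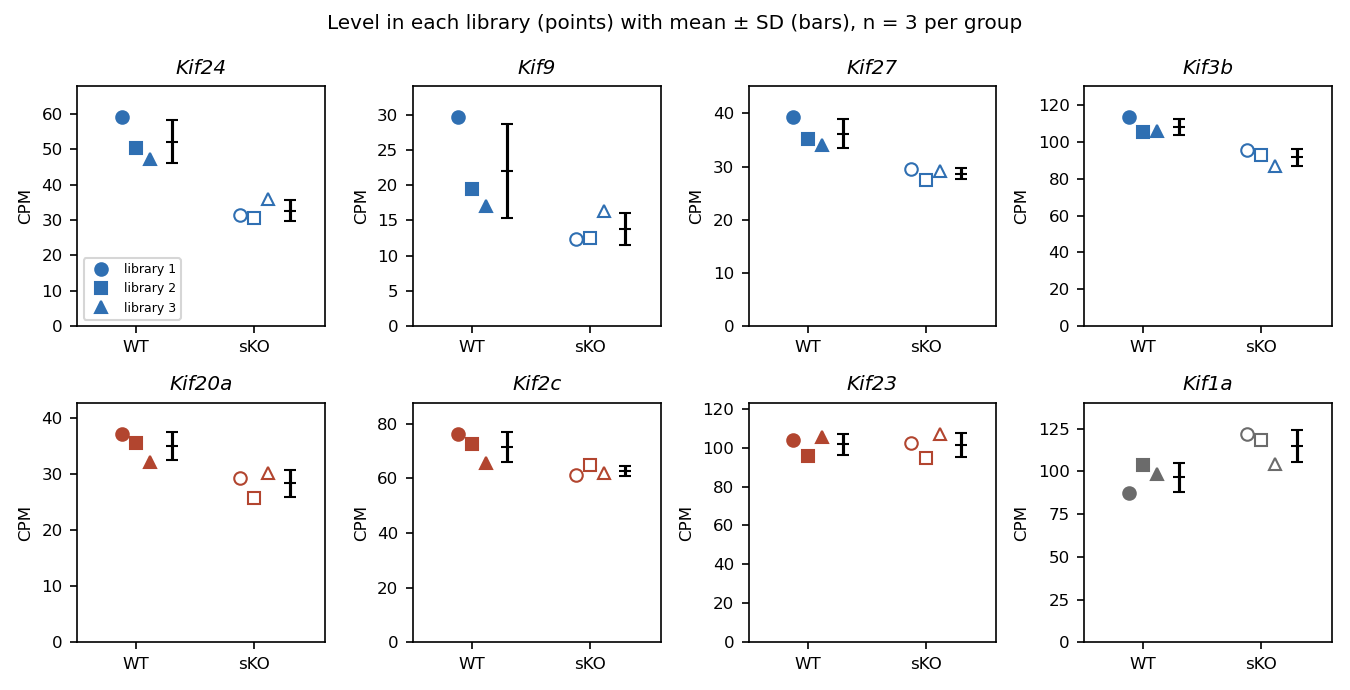
CPM (y axis) of 8 kinesins in the 3 WT and 3 sKO libraries, one point per library, with mean ± SD (n = 3). For Kif24, Kif9, Kif27, Kif3b, Kif20a and Kif2c all sKO points lie below all WT points, Kif23 is interleaved, and Kif1a is higher in every sKO library.

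Heterotrimeric kinesin-2, the motor that carries cargo up the cilium, consists of Kif3a, Kif3b and Kifap3. Kif3b was at 113, 105 and 106 CPM in the WT libraries and 95.5, 92.9 and 86.7 CPM in the sKO libraries, without overlap (log2 fold change -0.24, SE 0.09, adjusted p = 0.252 by edgeR). Kif3a was at 131, 111 and 109 CPM in the WT libraries and 107, 105 and 108 CPM in the sKO libraries (log2 fold change -0.14, SE 0.10, adjusted p = 0.574 by edgeR). Here too the groups did not overlap, but WT libraries 2 and 3 were within a few CPM of the sKO libraries, and the estimate was -0.05 without WT library 1. Kifap3, which links the motor to cargo, was at 59.9, 47.6 and 48.8 CPM in the WT libraries and 42.5, 43.1 and 48.8 CPM in the sKO libraries. Its sKO library 3 reached the level of WT libraries 2 and 3 (log2 fold change -0.22, SE 0.12, adjusted p = 0.472 by edgeR).

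The remaining ciliary kinesins had estimates above 0 and overlapping groups. Kif3c, an alternative partner of Kif3a, had a log2 fold change of 0.18 (SE 0.15), and Kif17, a homodimeric kinesin-2, one of 0.13 (SE 0.15). Kif6 and Kif19a, kinesins of motile cilia, had values of 0.19 (SE 0.16) and 0.21 (SE 0.31) at mean WT levels of 9.23 and 1.78 CPM. In all, 5 of 11 ciliary kinesins had all sKO values below all WT values (45.5%) and 0 had them all above, against 10.7% and 9.58% of all genes tested.

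Of 13 dividing-cell kinesins edgeR, DESeq2 and limma-voom called 0, and 2 were lower and 0 higher at an unadjusted edgeR p under 0.05 (8.54% and 5.06% of all genes tested). Kif20a, which brings the chromosomal passenger complex to the central spindle, was at 37.2, 35.6 and 32.3 CPM in the WT libraries and 29.4, 25.7 and 30.2 CPM in the sKO libraries. No sKO library reached the lowest WT library (log2 fold change -0.30, SE 0.12, adjusted p = 0.266 by edgeR). Kif20b, also a kinesin of cytokinesis, was at 65.1, 48.4 and 53.6 CPM in the WT libraries and 41.6, 39.03 and 52.4 CPM in the sKO libraries, with sKO library 3 inside the WT range (log2 fold change -0.33, SE 0.14, adjusted p = 0.348 by edgeR).

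Kif15 and Kif11 push spindle poles apart, and both were highest in WT library 1 and lowest in sKO library 2. Kif15 was at 54.3, 42.3 and 45.7 CPM in the WT libraries and 36.4, 33.5 and 46.5 CPM in the sKO libraries (log2 fold change -0.29, SE 0.14, adjusted p = 0.418 by edgeR). For Kif11 the log2 fold change was -0.21 (SE 0.15). In both genes sKO library 3 lay within the WT range.

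Kif2c, which takes microtubule ends apart at centromeres, was at 76.3, 72.5 and 65.6 CPM in the WT libraries and 61.3, 64.8 and 62.00 CPM in the sKO libraries. WT library 3 was close to sKO library 2, though the groups did not overlap (log2 fold change -0.19, SE 0.10, adjusted p = 0.434 by edgeR). Kif14, which acts with citron kinase at the midbody, was at 28.2, 28.5 and 30.4 CPM in the WT libraries and 26.01, 24.4 and 25.8 CPM in the sKO libraries, also without overlap (log2 fold change -0.19, SE 0.11, adjusted p = 0.484 by edgeR). The chromokinesin Kif22 had a log2 fold change of -0.16 (SE 0.10) without overlap. Thus 4 of 13 dividing-cell kinesins (30.8%) were lower in every sKO library, against 10.7% of all genes tested, each by a small amount.

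Kifc1 and Kifc5b encode minus-end motors of the spindle poles and are near-identical: their transcripts in GENCODE M21 matched at 96.8% of 2312 aligned bases, so reads could be split between them and both counts are uncertain. Kifc1 was at 33.02, 36.7 and 34.6 CPM in the WT libraries and 33.9, 30.1 and 28.9 CPM in the sKO libraries. Kifc5b was at 25.9, 30.3 and 23.8 CPM in the WT libraries and 21.5, 20.7 and 24.4 CPM in the sKO libraries. Both had overlapping groups, with log2 fold changes of -0.17 (SE 0.11) and -0.26 (SE 0.13) and edgeR adjusted p of 0.548 and 0.433.

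Of the dividing-cell kinesins not yet described, Kif23, a centralspindlin motor that also helps build the bridges between germ cells, was at 104, 95.6 and 105 CPM in the WT libraries and 102, 94.5 and 107 CPM in the sKO libraries, the highest CPM of its list. Its groups were interleaved (log2 fold change -0.01, SE 0.09, adjusted p = 0.987 by edgeR), and the sign of the estimate changed when single libraries were left out. The chromokinesin Kif4 had a log2 fold change of -0.01 (SE 0.11), Kif18a, which aligns chromosomes, one of 0.04 (SE 0.15), and Kif18b, which acts on astral microtubules, one of -0.18 (SE 0.13).

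Of 16 transport kinesins the same tools called 0, and 0 were lower and 2 higher at an unadjusted edgeR p under 0.05 (8.54% and 5.06% of all genes tested). Kif1a, which carries synaptic vesicle precursors in neurons, was at 87.3, 104 and 98.2 CPM in the WT libraries and 122, 118 and 105 CPM in the sKO libraries. WT library 2 and sKO library 3 were nearly level (log2 fold change 0.25, SE 0.10, adjusted p = 0.297 by edgeR). Kif5c, a conventional kinesin heavy chain, was at 37.1, 36.4 and 33.1 CPM in the WT libraries and 39.4, 45.1 and 41.5 CPM in the sKO libraries, without overlap (log2 fold change 0.24, SE 0.11, adjusted p = 0.351 by edgeR). These were the 2 of 16 transport kinesins higher in every sKO library (12.5%), against 9.58% of all genes tested.

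The other heavy chains had estimates nearer to or below 0. Kif5a was at 46.1, 47.9 and 42.3 CPM in the WT libraries and 37.2, 38.5 and 45.4 CPM in the sKO libraries, with overlap (log2 fold change -0.17, SE 0.11, adjusted p = 0.553 by edgeR). Kif5b, the broadly expressed form, was at 165, 140.2 and 194 CPM in the WT libraries and 189, 157 and 169.7 CPM in the sKO libraries, the highest CPM of the transport list. Its WT libraries spanned a wider range than the sKO libraries (log2 fold change 0.04, SE 0.12, adjusted p = 0.910 by edgeR), and the estimate was below 0 without WT library 2 or without sKO library 1.

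Kif2a, a microtubule depolymerase of neurons and spindles, was at 101, 76.3 and 75.6 CPM in the WT libraries and 65.5, 65.6 and 86.8 CPM in the sKO libraries, with WT library 1 and sKO library 3 high in their groups (log2 fold change -0.21, SE 0.15, adjusted p = 0.564 by edgeR). Kif26a, a kinesin without motor activity, was at 45.1, 63.03 and 50.3 CPM in the WT libraries and 51.2, 58.6 and 70.9 CPM in the sKO libraries, with overlap (log2 fold change 0.19, SE 0.15, adjusted p = 0.623 by edgeR). Kifc3, a minus-end motor at cell junctions, was at 21.5, 25.6 and 21.5 CPM in the WT libraries and 22.00, 20.1 and 19.8 CPM in the sKO libraries, with overlap (log2 fold change -0.15, SE 0.13, adjusted p = 0.659 by edgeR). The 9 other tested transport kinesins, Kif1b, Kif1c, Kif13a, Kif13b, Kif16b, Kif21a, Kif21b, Kif26b and Kifc2, had log2 fold changes from -0.07 to 0.27 and overlapping groups.

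Levels per length were compared as CPM divided by the exonic length in GENCODE M21, which gave a length for 47 of the 48 rows and may differ from the annotation behind the counts. The highest WT level was that of Kif3a, at 32.7 CPM per kb, followed by Kif5b at 20.9, Kif3b at 19.2, Kif21a at 19.02 and Kif2c at 16.4 CPM per kb. Kif24 and Kif9 were at 6.52 and 5.13 CPM per kb in WT and 4.07 and 3.20 CPM per kb in sKO. The lowest listed kinesins that were tested were Kif19a at 0.438 and Kif26b at 0.114 CPM per kb in WT.

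**Figure D3:**
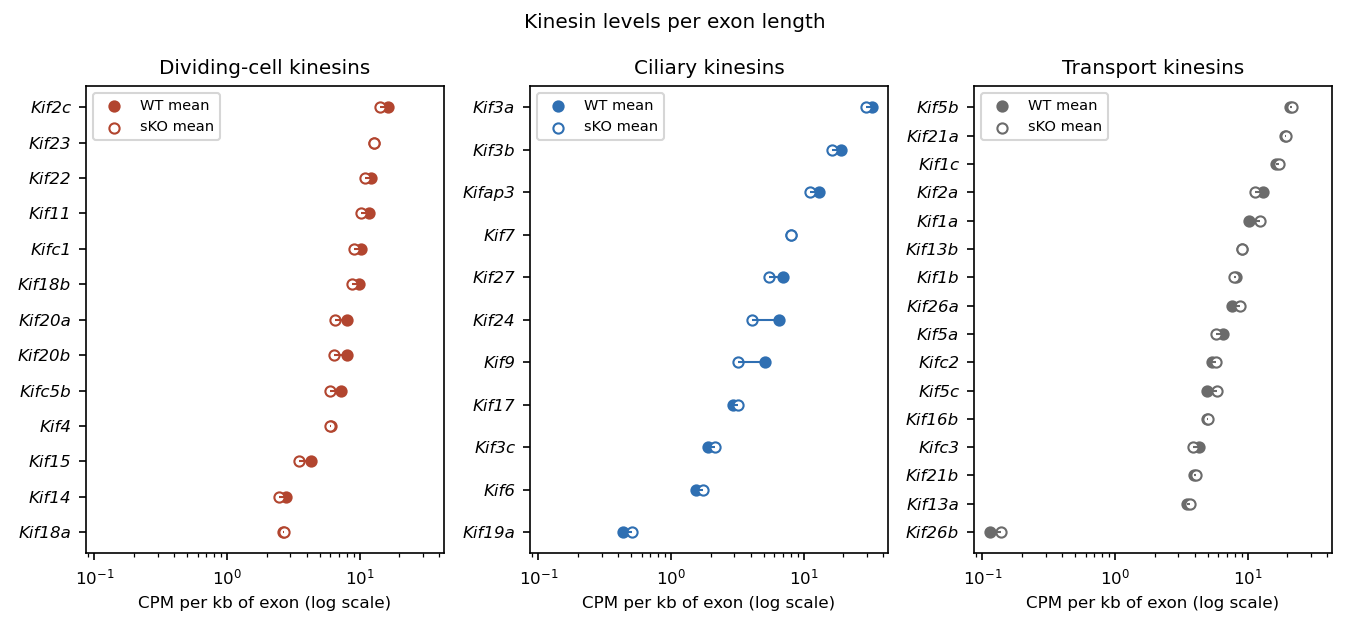
Mean CPM per kb of exon (log axis) in WT (filled) and sKO (open) for tested kinesins, n = 3 libraries per group. Kif3a has the highest WT level, 32.7 CPM per kb, and the levels span more than 2 powers of 10.

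Kif4-ps, a transcribed pseudogene on chromosome 12 in RefSeq, had 49, 50 and 20 counts in WT and 0, 4 and 12 counts in sKO. It was lower in every sKO library, and was past the count cutoff in 3 WT libraries and 1 sKO library, so it was tested through the WT group (log2 fold change -2.88, SE 0.69, adjusted p = 0.0775 by edgeR). The log2 fold change was -2.32 without sKO library 1 and -4.22 without sKO library 3. Its adjusted p was 0.00126 with DESeq2, 0.0462 without WT library 3 and 0.0150 without sKO library 3, in a range of 3.04e-08 to 0.330 over its alternatives. Its transcript matched Kif4 at 79.9% of aligned bases, and Kif4 itself was at 33.4, 31.3 and 35.2 CPM in the WT libraries and 33.9, 31.00 and 34.2 CPM in the sKO libraries. Kif19b had 12, 15 and 10 counts in WT and 10, 6 and 10 counts in sKO and was also tested through WT (log2 fold change -0.52, SE 0.41). Of the untested rows, Kif22-ps had 0 counts in all 6 libraries, and Kif2b, Kif16bos, Kifc5c-ps and Kif28 had at most 10 counts in any library.

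Kif12, a kinesin of kidney epithelium, had 0, 9 and 8 counts in WT and 67, 8 and 2 counts in sKO, so that sKO library 1 stood apart. The summed level of 7 epididymis markers was 147 CPM in sKO library 1 and 1.48 to 16.5 CPM in the other 5 libraries, mostly from Crisp1, Cdh16 and Adam7, while Lcn9 had 0 counts in every library. The part of that tissue in the Kif12 counts was not tested.

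Of 14 tested partners of ciliary kinesins edgeR called 2 lower and 0 higher, DESeq2 4 and 0, and limma-voom 0 either way, with a median log2 fold change of -0.24. Over all genes tested edgeR called 1.27% lower and 0.0318% higher, and DESeq2 3.82% and 0.297%. Ift172, a subunit of the intraflagellar transport trains that kinesin-2 moves, was at 113, 101 and 88.3 CPM in the WT libraries and 66.1, 63.6 and 62.9 CPM in the sKO libraries. It fell from 101 ± 12.3 CPM in WT to 64.2 ± 1.70 CPM in sKO (SD, n = 3 each), a log2 fold change of -0.65 with SE 0.11 and adjusted p = 0.0251 by edgeR. Hydin, a central apparatus protein, was at 11.98, 8.58 and 5.34 CPM in the WT libraries and 2.40, 3.26 and 3.84 CPM in the sKO libraries. Neither gene had overlapping groups. Hydin fell from 8.63 ± 3.32 CPM to 3.17 ± 0.726 CPM (SD, n = 3 each), a log2 fold change of -1.44 with SE 0.30 and adjusted p = 0.0480 by edgeR. With limma-voom the adjusted p was 0.0536 for Ift172 and 0.0829 for Hydin. The call of Ift172 was lost without WT library 2 (adjusted p = 0.137), sKO library 1 (0.103) or sKO library 2 (0.173), and that of Hydin without WT library 1 (0.117), WT library 2 (0.167), sKO library 1 (0.161) or sKO library 2 (0.210). Over all alternatives the adjusted p ran from 1.04e-06 to 0.173 for Ift172 and from 3.18e-07 to 0.210 for Hydin. Ccp110, which works with Kif24 at the centriole, and Stk36, a partner of Kif27, were picked after their values were seen. Their log2 fold changes were -0.69 (SE 0.17, adjusted p = 0.0900 by edgeR) and -0.72 (SE 0.17, adjusted p = 0.0664 by edgeR). Cep97 had overlapping groups and a log2 fold change of -0.14 (SE 0.13, adjusted p = 0.683 by edgeR). Spef2 had a lower estimate than Ccp110 and Stk36 but overlapping groups (log2 fold change -1.22, SE 0.49, adjusted p = 0.304 by edgeR). Ift88 was lower without overlap (log2 fold change -0.49, SE 0.15, adjusted p = 0.169 by edgeR). In all, 11 of the 14 estimates were below 0 and 3 above, those of Gli1 (0.25), Gli2 (0.15) and Gli3 (0.12).

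Of 15 partners of dividing-cell kinesins edgeR called 0, with 3 lower and 0 higher at an unadjusted p under 0.05 (8.54% and 5.06% of all genes tested). DESeq2 called 1 lower, Prc1, and 0 higher, and limma-voom called 0. Over all genes tested edgeR called 1.27% lower and 0.0318% higher, DESeq2 3.82% and 0.297%, and limma-voom 0%. The median log2 fold change of the list was -0.19. Prc1, which bundles midzone microtubules together with Kif4, was at 125, 88.95 and 92.7 CPM in the WT libraries and 72.3, 64.3 and 81.8 CPM in the sKO libraries, without overlap. It had a WT mean of 102 ± 20.02 CPM and an sKO mean of 72.8 ± 8.71 CPM (SD, n = 3 each), a log2 fold change of -0.49 with SE 0.14 and adjusted p = 0.135 by edgeR. Cdca8, a subunit of the chromosomal passenger complex, was at 96.6, 93.9 and 86.6 CPM in the WT libraries and 74.3, 69.00 and 79.7 CPM in the sKO libraries, also without overlap (log2 fold change -0.31, SE 0.10, adjusted p = 0.159 by edgeR). The kinetochore kinesin Cenpe, whose symbol falls outside the selection, had a log2 fold change of -0.21 (SE 0.13).

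Of 13 partners of transport kinesins edgeR, DESeq2 and limma-voom called 0, with 1 lower and 1 higher at an unadjusted edgeR p under 0.05 (8.54% and 5.06% of all genes tested) and a median of 0.01. Madd, a Kif1 cargo adaptor, was at 58.8, 60.5 and 56.04 CPM in the WT libraries and 46.6, 43.7 and 53.4 CPM in the sKO libraries (log2 fold change -0.29, SE 0.11, adjusted p = 0.252 by edgeR). Trak1, a mitochondrial adaptor of Kif5, was at 162, 182 and 172 CPM in the WT libraries and 192, 199.8 and 207 CPM in the sKO libraries (log2 fold change 0.21, SE 0.09, adjusted p = 0.308 by edgeR). The groups of these 2 genes did not overlap, with sKO lower for Madd and higher for Trak1.

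Markers of germ cell stages were read beside these levels. Of 12 pachytene spermatocyte markers 10 were tested, 8 of them past the count cutoff in all 6 libraries, and all 10 had estimates below 0 (median log2 fold change -2.42). Of these edgeR called 4 lower, Acr, Ybx2, Tekt1 and Nme5, DESeq2 8 and limma-voom 0, against 1.27%, 3.82% and 0% of all genes tested. Acr, with 9, 3 and 17 counts in sKO, was tested through the WT group. So was Adam2, with 10, 24 and 134 counts in sKO, which was below the cutoff in sKO library 1. The median and the count of estimates below 0 include both genes, and the 4 calls include Acr. The summed level of the 12 markers was 662 to 1469 CPM in WT and 214 to 411 CPM in sKO. It was highest in WT library 1 and, among sKO, in library 3. The tested kinesins of the role lists with estimates below 0 were read in the same way over the sKO libraries. Highest in library 3 as well were Kif24, Kif9, Kif3a, Kifap3, Kif7, Kif20a, Kif20b, Kif15, Kif11, Kifc5b, Kif18b, Kif4, Kif23, Kif2a and Kif5a. Some of these margins were small, as for Kif3a (107, 105 and 108 CPM). Kif27, Kif14, Kif3b, Kifc1, Kifc3 and Kif1b were highest in library 1, and Kif2c and Kif22 in library 2. Of these, Kif3b, Kif22, Kifc1 and Kifc3 were lowest in library 3. Among WT, not all that were highest in sKO library 3 were highest in library 1. Kif7, Kifc5b, Kif18b and Kif5a were highest in WT library 2, and Kif4 and Kif23 in WT library 3. Of the tested listed kinesins with estimates above 0, Kif17, Kif18a, Kif26a, Kif1c and Kif19a were also highest in sKO library 3, and the others were not. The share of all genes with this order was not computed. In bulk tissue, fewer cells of a type and less RNA per cell cannot be told apart, and the part of spermatocyte number in the kinesin values was not tested.

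Early prophase markers summed to 1203 to 1914 CPM in WT and 959 to 1463 CPM in sKO (median log2 fold change -0.41, 1 of 10 called lower, Spo11, against 1.27% of all genes tested). Spermatogonia markers summed to 873 to 968 and 984 to 1027 CPM (0.16, 0 of 10 called, 1 lower and 0 higher at an unadjusted edgeR p under 0.05). Sertoli cell markers summed to 5360.3 to 6295 and 6519.8 to 7957 CPM (0.26, 0 of 10 called, 0 lower and 6 higher by the same p). At that p 8.54% of all genes tested were lower and 5.06% higher. Of 8 spermatid markers 2 were tested, and Prm1, Prm2, Tnp1, Tnp2, Acrv1 and Catsper1 had at most 8 counts in any library.

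Markers of cells outside the seminiferous epithelium that could also carry kinesins were summed in the same way. Those of multiciliated duct cells summed to 12.8 to 16.9 CPM in WT and 10.9 to 14.1 CPM in sKO, and the defining factors Mcidas and Gmnc had at most 11 and 5 counts in a library. Members of this list went opposite ways without overlap: Cdhr4 and Deup1 had log2 fold changes of -0.99 and -1.18 and Ccno one of 0.58, with edgeR adjusted p of 0.130, 0.219 and 0.216. Deup1, with 7, 15 and 22 counts in sKO, was tested through the WT group. Neuron markers summed to 205 to 231 CPM in WT and 234 to 292 CPM in sKO, mostly Tubb3, beside the higher estimates of Kif1a and Kif5c, and Snap25 had at most 8 counts. The neuron markers had a median log2 fold change of 0.27, beside 0.26 for the Sertoli cell markers. Markers of Leydig, myoid, macrophage and endothelial cells had medians of 0.32, 0.29, 0.38 and 0.25, so the rise was not particular to neuron markers. The part of any of these cells in the kinesin values was not tested.

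**Figure D4:**
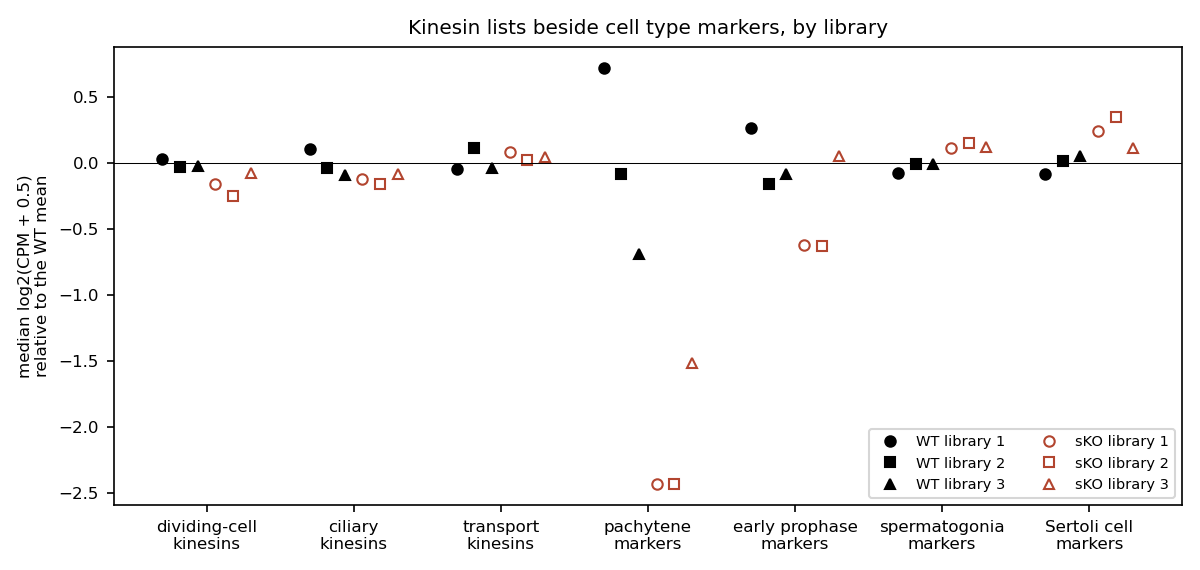
Median over the tested genes of each list of log2(CPM + 0.5) relative to the gene's WT mean (y axis), for each of the 3 WT and 3 sKO libraries. The pachytene markers reach -2.43 in sKO libraries 1 and 2, while the medians of the 3 kinesin lists lie between -0.25 and 0.12.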

How the data were processed

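The authors deposited raw read counts per gene symbol for 6 testis samples in 1 table. The submitters' processing notes name Trim Galore, HISAT2, featureCounts and build mm39. Versions, annotation, strand setting and handling of multiply mapped reads were not found in the labels, so overlapping, antisense or near-identical genes may share reads. The columns con and scKO were taken as WT and sKO, by replicate number.

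The counts were filtered with filterByExpr, scaled by TMM and tested with edgeR 4.0.16 (R 4.3.3; robust quasi-likelihood, 3 sKO against 3 WT, no covariates), with Benjamini-Hochberg adjustment over 18860 genes; each SE comes from the F statistic. Alternatives were other scalings, no filter, DESeq2 1.42.0, limma-voom (limma 3.58.1), a replicate block and left-out libraries. Scripts were tested on simulated data. A count of 0 allows up to 3 counts, 0.165 to 0.186 CPM, counting error only. Libraries of a group were never equal within counting noise (chi-square over degrees of freedom 4.70 to 23.2).

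Members and lists were chosen with earlier results of these data known. Values per library are given for called members, in each role list the 6 with the lowest p and the one with the highest CPM, Kifc1 and Kifc5b, and members without overlap past 1 log2 unit, and for called partners and the 2 of lowest p per partner list. Other members, such as Kif7, Kif4 and Kif12, are given as context. Sequences are from RefSeq (GRCm38.p6).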

Additional observations from a re-analysis of the deposited data

How the results depend on the processing

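Of 18860 genes tested, 240 were called lower and 6 higher with edgeR, and 721 (3.82%) and 56 with DESeq2. Without the count filter it was 992 and 154 of 35085 genes. Limma-voom called 0 and 0 (1598 and 931 at an unadjusted p under 0.05), and without both libraries numbered 1 there were 155 lower. Leaving out single libraries gave 0 to 624 lower and 0 to 31 higher. Of 42 kinesin rows tested, the 1 called lower became 3 with DESeq2, and 3 of 47 without the filter (Kif24, Kif4-ps and Kif9 in both). Of these, Kif4-ps was past the count cutoff in only 1 sKO library. It became 0 with limma-voom (7 at an unadjusted p under 0.05), 0 without both libraries numbered 1 (2 at an unadjusted p), and 0 to 2 without single libraries. Under no alternative run was a kinesin called higher. The cause was not tested.

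Same-numbered libraries did not deviate together (correlations -0.38, 0.17 and -0.33), and the highest correlation was 0.52, between WT library 1 and sKO library 3. Deviations within so few libraries cannot show whether same-numbered libraries were paired, which the labels do not state. With the replicate block 21 genes were called lower and 0 higher (605 at an unadjusted p under 0.05), with 0 kinesins lower (7 at an unadjusted p). Adjusted p with the block was 0.116 for Kif24, 0.0778 for Ift172, 0.186 for Hydin and 0.0342 for Rif1.

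The ciliary median was -0.18 to -0.0472 without single libraries, and the transport median was -0.0208 without both libraries numbered 1. The dividing-cell median lay between -0.24 and -0.16 over its 14 alternatives. Rif1 had -1.14 with limma-voom (adjusted p = 0.0522) and -1.30 to -0.97 without single libraries. Kif23 ranged from -0.0823 to 0.0436 without single libraries, and Kif5b from -0.0645 to 0.17, with -0.0457 without both libraries numbered 1, so the sign of neither is set. Depth limits Kif4-ps, Kif19b and Kif12, which rest on few counts.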
